A study of Gasterosteus aculeatus with 60 samples.

Results

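The 6 genes described here encode transcription factors that set up or maintain parts of the diencephalon, the brain region behind the telencephalon that holds the thalamus, the pretectum and the hypothalamus. They were picked by name (otpa, nkx2.4a, barhl2, lhx9, foxa2 and gata2a), and all 6 were found by their names among the 17536 genes of the count table. RNA-seq was performed on the diencephalon and the telencephalon of 30 wild-caught adult male threespined sticklebacks from Putah Creek, a freshwater population, all of them defending a territory. Challenged males faced a smaller male confined in a flask for 5 min, and control males an empty flask. Brains were taken at 3 times counted from the start of the encounter (30, 60 and 120 min), from 5 challenged and 5 control males each, so that each of the 12 groups of region, time and treatment held 5 libraries. Each fish gave 1 library per region and is named here by its number in the sample labels. All libraries came from adult males dissected by region from frozen heads, so cells of different types within a region were not separated. The questions were how far the 6 genes separated the 2 regions, how evenly they did so from fish to fish, and whether the challenge or the time after it moved them.

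Regional identity in the vertebrate forebrain is laid down in the embryo by combinations of homeobox, LIM-homeobox, forkhead and GATA factors, and many neurons keep expressing them in the adult. Of the genes here, otpa and nkx2.4a are factors of the hypothalamus. In zebrafish otpa specifies neuroendocrine and dopaminergic neurons of the hypothalamus and the preoptic area, which adjoins the telencephalon. nkx2.4a is an NK2-family homeobox factor of the ventral forebrain, and foxa2 a forkhead factor of the floor plate and ventral midline. barhl2 is a Bar-class homeobox factor, lhx9 a LIM-homeobox factor of thalamic neurons, and gata2a a zinc-finger factor that in mouse and zebrafish acts in the choice of an inhibitory neuron fate in midbrain and thalamus.

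Totals of reads on genes lay between 17705327 and 55299804 per library, with a median of 30159568. Levels are given as normalised read counts in cpm, the reads of a gene scaled to the size of its library with factors from the trimmed mean of M values over all 60 libraries. The regional labels were checked on lists of marker genes. A list of 15 telencephalic factors, such as eomesa and tbr1b, summed to 152–275 cpm in diencephalon libraries, against 703–1453 cpm in telencephalon libraries, so every library matched its label on that list. A list of 14 midbrain and hindbrain factors, such as eng2a and pax7b, summed to 155–239 cpm in diencephalon libraries, against 0.765–35.0 cpm in telencephalon libraries. Libraries labelled diencephalon therefore also held transcripts typical of the midbrain, and their part in the differences below was not tested. Markers of pituitary (2.68–6589 cpm) and photoreceptors (7.41–686 cpm) also ranged widely between diencephalon libraries.

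All 6 factors were higher in diencephalon than in telencephalon. By edgeR's quasi-likelihood test with Benjamini-Hochberg adjustment over all genes and a threshold of 0.1, 6 of 6 passed in that direction, where 35.1% of all 17536 genes did. Because these are bulk samples, fewer cells that express a gene and less RNA per cell cannot be told apart. The factors fell into 3 sorts by what was left in the telencephalon. nkx2.4a and foxa2 were close to absent there. barhl2, lhx9 and gata2a were present at a low level that varied between fish, but less than that of otpa. The level of otpa there was very uneven.

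nkx2.4a, the NK2-family factor, had the highest fitted log2 fold change of diencephalon over telencephalon among the genes tested. It ranged between 6.09 and 22.0 cpm in diencephalon (median 15.1), against 0–0.492 cpm in telencephalon (median 0.0102, 30 libraries each). In telencephalon 15 of 30 libraries held no read of it and 29 held 3 or fewer, which is the limit that a count of 0 allows and equals 0.0611–0.173 cpm in these libraries. The groups did not overlap. How many of all genes separated the regions without overlap was not counted. The ratio of region means was 408, with 32 telencephalic reads in all, and it was 704 without fish 38, whose library held 12 of them. The fitted log2 fold change of 9.60 ± 0.22 (SE, adjusted p = 2.56e-34 by edgeR's quasi-likelihood test) rests on these few reads and depends on the prior count used in fitting.

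foxa2, the ventral midline factor, followed the same pattern with 1 exception. It ranged between 3.69 and 10.5 cpm in diencephalon (median 8.07), against 0–5.29 cpm in telencephalon (median 0.0462). The highest telencephalic value came from fish 38 with 129 reads, and the next highest library (fish 9) held 0.225 cpm. Of the 30 telencephalon libraries, 26 held 3 or fewer reads. The log2 fold change was 6.24 ± 0.36 (SE, adjusted p = 8.22e-22, edgeR's quasi-likelihood test), and the ratio of means was 34.0, or 139 without fish 38. A second gene carrying the name FOXA2 behaved alike, with 2.13–5.11 cpm in diencephalon, against 0–2.66 cpm in telencephalon, where the highest value again came from fish 38.

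The Bar-class factor barhl2 ranged between 15.7 and 27.2 cpm in diencephalon (median 21.6), against 0.822–7.35 cpm in telencephalon (median 2.15). lhx9, the thalamic LIM-homeobox factor, ranged between 48.6 and 78.4 cpm in diencephalon (median 62.9), against 3.45–25.5 cpm in telencephalon (median 9.23). gata2a, the zinc-finger factor, ranged between 8.03 and 14.1 cpm in diencephalon (median 11.0), against 0.529–3.08 cpm in telencephalon (median 1.19). For these 3 genes the regions did not overlap, and each was higher in diencephalon in 30 of 30 fish. The share of all genes without overlap between the regions was not counted. The log2 fold changes were 3.00 ± 0.14 for barhl2, 2.66 ± 0.11 for lhx9 and 3.17 ± 0.09 for gata2a (SE, edgeR's quasi-likelihood test, largest adjusted p = 3.73e-25). The paralogs barhl1b and gata2b left less in the telencephalon relative to their own diencephalic level. The median telencephalic level was 0.200% of that of the diencephalon of the same fish for barhl1b and 2.50% for gata2b, against 9.90% for barhl2 and 10.8% for gata2a. Reads that fell in more than 1 gene had been excluded upstream, and how paralogs shared reads was not tested.

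otpa, the hypothalamic and preoptic factor, separated the regions least of the 6. It ranged between 4.40 and 10.9 cpm in diencephalon (median 9.13), against 0.400–10.2 cpm in telencephalon (median 1.85). The regions overlapped: 5 telencephalon libraries lay above the lowest diencephalon library, that of fish 38, and 2 above the next lowest (6.34 cpm). otpa was higher in diencephalon in 28 of 30 fish, the exceptions being fish 38 and fish 12. Its log2 fold change was 1.79 ± 0.24 (SE, adjusted p = 2.17e-09, edgeR's quasi-likelihood test), and 2.15 without fish 1, 9, 12 and 38. The telencephalon libraries of these fish held the highest sums of the thalamic and midbrain lists described below. These fish were left out after their values had been seen. The paralog OTP behaved alike, with 6.39–19.3 cpm in diencephalon, against 0.0444–14.4 cpm in telencephalon, and 29 of 30 fish higher in diencephalon. In order of size, the log2 fold changes ran nkx2.4a, foxa2, gata2a, barhl2, lhx9, otpa. gata2a and barhl2 lay closer together than 2 standard errors of barhl2, and differences between the genes were not tested.

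**Figure D1:**
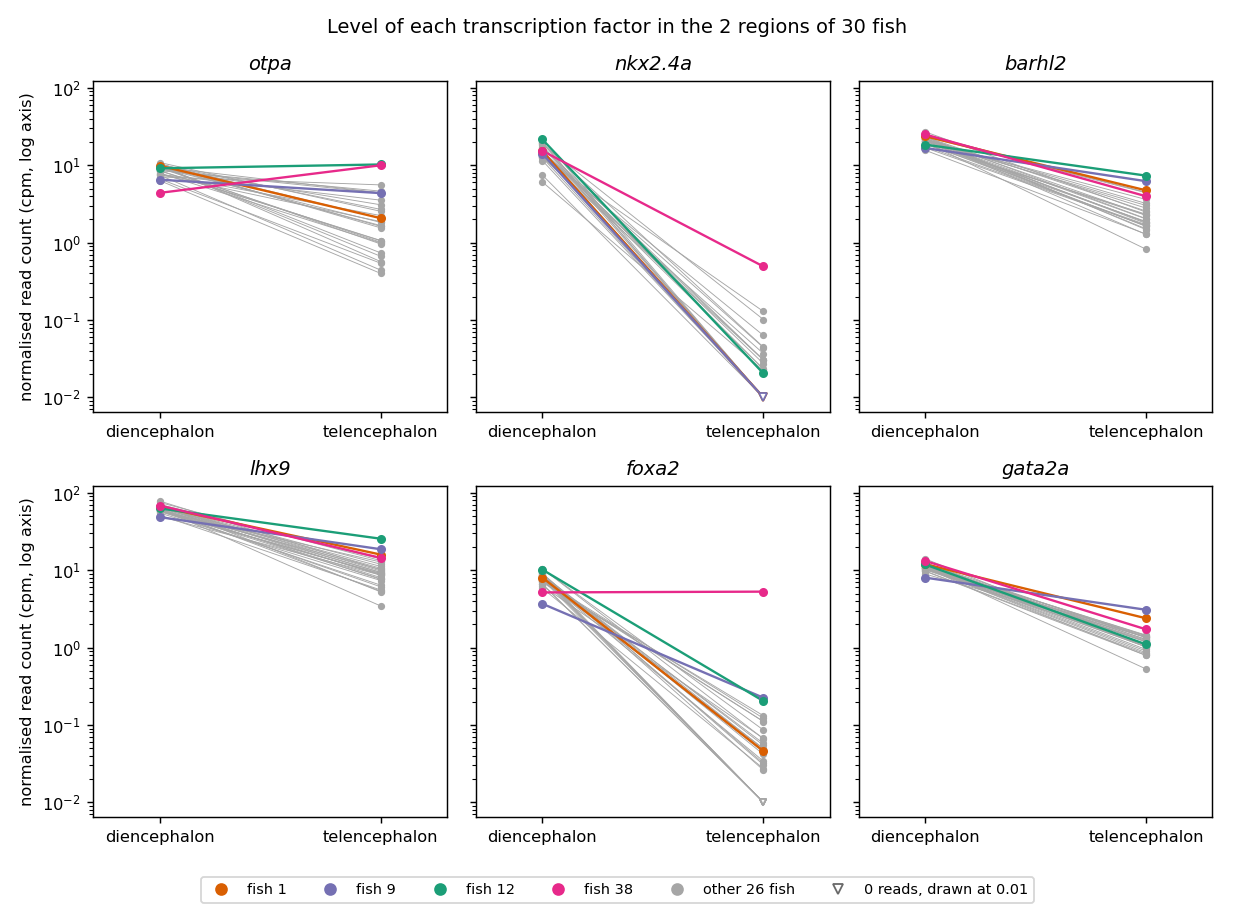
Normalised read count (cpm, log axis) of each transcription factor in diencephalon and telencephalon, with 1 line per fish and 30 fish per panel. nkx2.4a and foxa2 drop to a few reads or to 0 (open triangles, drawn at 0.01) in nearly all telencephalon libraries, barhl2, lhx9 and gata2a keep a low level without overlap, and otpa overlaps between regions. The coloured fish 1, 9, 12 and 38 have the telencephalon libraries with the highest sums of the thalamic and midbrain-hindbrain lists. They are not high for every factor: fish 1 lies near the telencephalic median for otpa and foxa2.

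The spread between fish differed by region. In diencephalon the coefficients of variation over 30 libraries were 10.8% for gata2a, 10.9% for lhx9, 12.5% for barhl2, 17.2% for otpa, 18.7% for foxa2 and 23.2% for nkx2.4a. In telencephalon the same measure was 39.0% for gata2a, 43.9% for lhx9, 56.7% for barhl2 and 94.7% for otpa. It was 413% for foxa2 and 245% for nkx2.4a, which held 3 or fewer reads in 26 and 29 of the 30 libraries. The SD of log2 cpm around the group means put otpa in telencephalon (1.28) above 97.4% of the 17247 genes tested there, whose median SD was 0.20. The SD of barhl2 there was 0.75, of lhx9 0.58 and of gata2a 0.47, above 91.8%, 87.2% and 82.5% of the genes. That of foxa2 was 1.26 and that of nkx2.4a 0.55, above 97.3% and 86.0%, though neither passed the filter on low counts there. In diencephalon gata2a (0.15) and lhx9 (0.16) lay below the median SD of all genes tested there (0.17), while barhl2 (0.18), foxa2 (0.28), otpa (0.28) and nkx2.4a (0.38) lay above 53.7%, 71.0%, 72.0% and 81.0% of them. The difference in spread between regions was not tested. Counts were also lower in telencephalon, with a median of 47 reads of otpa, against 274 in diencephalon, and the part of counting noise in the spread was not tested.

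A few telencephalon libraries carried many of the high values. Ranked by telencephalic level, fish 1, 9, 12 and 38 held 16 of the 30 places among the 5 highest of each factor. These 4 fish were singled out after their values had been seen, so this count describes them and is no test. Fish 1 held 3 of these places. Fish 13 held 4 places (otpa 5.58, barhl2 4.42, lhx9 14.0 and foxa2 0.122 cpm) and fish 35 held 3. Fish 38, a challenged male at 30 min, held 10.0 cpm of otpa in telencephalon, where the other 4 challenged males of that time held 3.09, 0.96, 2.69 and 0.569 cpm. Its foxa2 level there was 5.29 cpm, where the other 4 held 0, 0.067, 0.0306 and 0 cpm, and its nkx2.4a level was 0.492 cpm, where they held 0.0232–0.0632 cpm. The diencephalon of fish 38 held the lowest otpa level of all diencephalon libraries, 4.40 cpm. In this fish otpa in telencephalon therefore came to 227% of its diencephalic level and foxa2 to 102%. The paralogs moved with them: OTP came to 225% and the second FOXA2 gene to 125% of the diencephalic level. In the diencephalon of fish 38, OTP (6.39 cpm) and the second FOXA2 gene (2.13 cpm) were also the lowest of the 30 libraries. foxa2 (5.17 cpm) ranked 29 of 30 there, counted from the highest. The percentages thus combine high telencephalic with low diencephalic levels. Fish 38 held 703 cpm of the telencephalic list in its telencephalon library, the lowest of the 30 and still above every diencephalon library.

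Fish 12, a control male at 30 min, differed in which factors it carried. It held 10.2 cpm of otpa in telencephalon, where the other 4 control males of that time held 1.07, 1.55, 0.99 and 3.54 cpm. It also held the highest barhl2 (7.35 cpm, where the others held 1.62, 1.70, 1.51 and 2.25 cpm) and the highest lhx9 (25.5 cpm, where the others held 6.10–10.6 cpm). Its gata2a level of 1.10 cpm was near the median of 1.19 cpm, while the paralog gata2b stood at 1.47 cpm, where the median was 0.548 cpm. Its foxa2 level was 0.204 cpm, or 10 reads.

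Fish 9 and fish 1, both challenged males at 120 min, held the 2 highest gata2a levels in telencephalon, 3.08 and 2.39 cpm, where the other 3 challenged males of that time held 1.34, 0.529 and 1.02 cpm. Their barhl2 levels were 6.23 and 4.74 cpm, where the others held 4.42, 1.85 and 0.822 cpm. Their lhx9 levels were 18.7 and 15.9 cpm, the second and the third highest of all telencephalon libraries. otpa was 4.37 cpm in fish 9 and 2.07 cpm in fish 1, within the range of the 26 other fish (highest 5.58 cpm). nkx2.4a was at 0 reads in both. In fish 9, telencephalic barhl2, lhx9 and gata2a stood at 37.2%, 38.5% and 38.4% of the diencephalic level, and nkx2.4a at 0%. The diencephalic levels of this fish were themselves low. Counted from the highest, its diencephalon library ranked 30 of 30 for lhx9 (48.6 cpm) and gata2a (8.03 cpm) and 29 for barhl2 (16.8 cpm). These percentages therefore do not measure the telencephalic level alone.

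**Figure D2:**
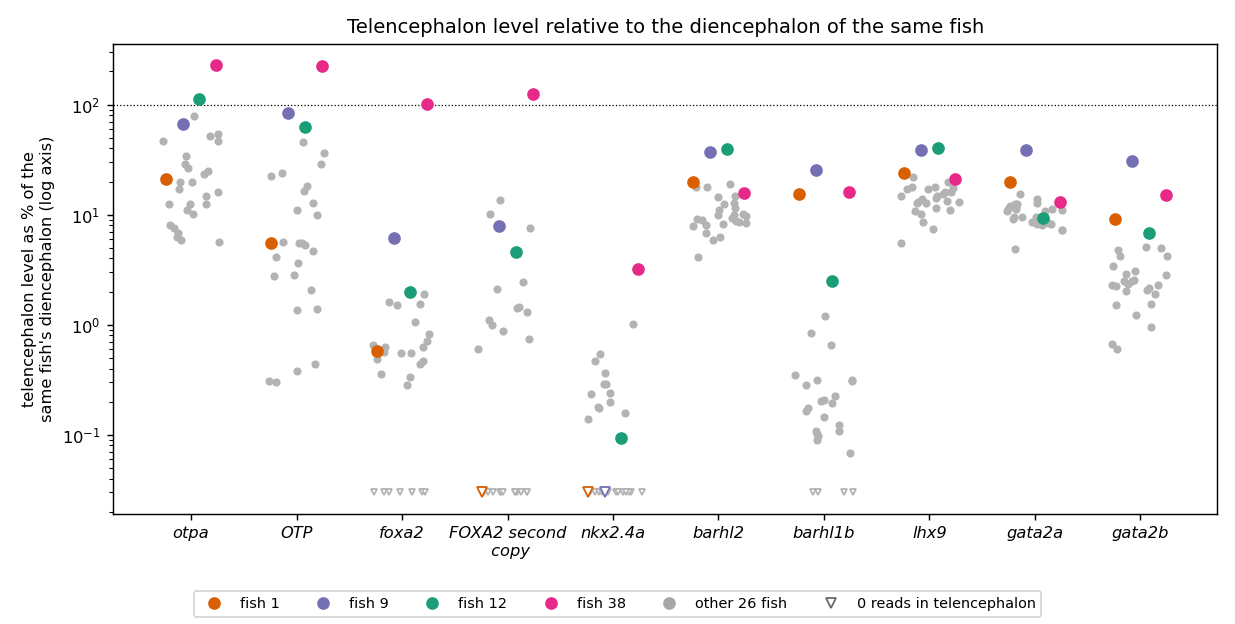
Telencephalic level of the 6 factors and 4 paralogs as a percentage of the diencephalic level of the same fish (log axis), with 1 point per fish and the dotted line at equal levels. Fish 38 (pink) lies above the line for otpa, OTP, foxa2 and the second FOXA2 gene, fish 9 and 12 stand high for barhl2 and lhx9, and fish 9 and 1 for gata2a. Open triangles are telencephalon libraries with 0 reads.

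Some of the marker lists moved with these 4 libraries. A list of 16 thalamic, pretectal and epithalamic factors summed to 98.2 cpm in the telencephalon of fish 9, 71.1 in fish 38, 64.2 in fish 12 and 54.2 in fish 1, the 4 highest of 30 libraries with a median of 11.9 cpm. Of its 16 genes, 14 to 15 were higher in each of these libraries than in all other 26. The list holds the paralogs barhl1b and gata2b, and the 4 fish were singled out with their values known, so these counts are a description. The share of all genes higher in each of these libraries than in all other 26 was not counted. The midbrain and hindbrain list was also highest in the same 4, at 35.0 cpm in fish 9, 24.5 in fish 1, 20.3 in fish 38 and 11.9 in fish 12, with a median of 1.72 cpm. The hypothalamic list of 12 genes summed to 72.5 cpm in fish 12, 68.8 in fish 38 and 50.9 in fish 9, the 3 highest, and to 34.0 cpm in fish 1, near the median of 33.6 cpm. Much of this sum is nkx2.1 (median 19.2 cpm in telencephalon), the 1 gene of the list that was lower in diencephalon. Of the 12 genes, 9 were higher in fish 12 than in all other 26, 7 in fish 9, 6 in fish 38 and 2 in fish 1. The hypothalamic list holds OTP and the second FOXA2 gene, whose high values in fish 38 are given above. Of the 15 telencephalic factors, 4 were higher in fish 12 than in all other 26, and 1 in each of fish 1, 9 and 38. Lower than in all other 26 were 7 of them in fish 9, 5 in fish 38, 4 in fish 12 and 1 in fish 1. The 4 oligodendrocyte genes summed to 113 cpm in fish 12 and 103 cpm in fish 38 (range 45.5–113 cpm). The 3 microglia genes did not follow the 4 libraries: they summed to 280 cpm in fish 9 and 278 cpm in fish 8, and to 40.2 in fish 12, 38.3 in fish 38 and 35.2 cpm in fish 1, where the median was 40.3 cpm. The part of tissue from beyond the telencephalon in the high levels of these libraries was not tested.

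**Figure D3:**
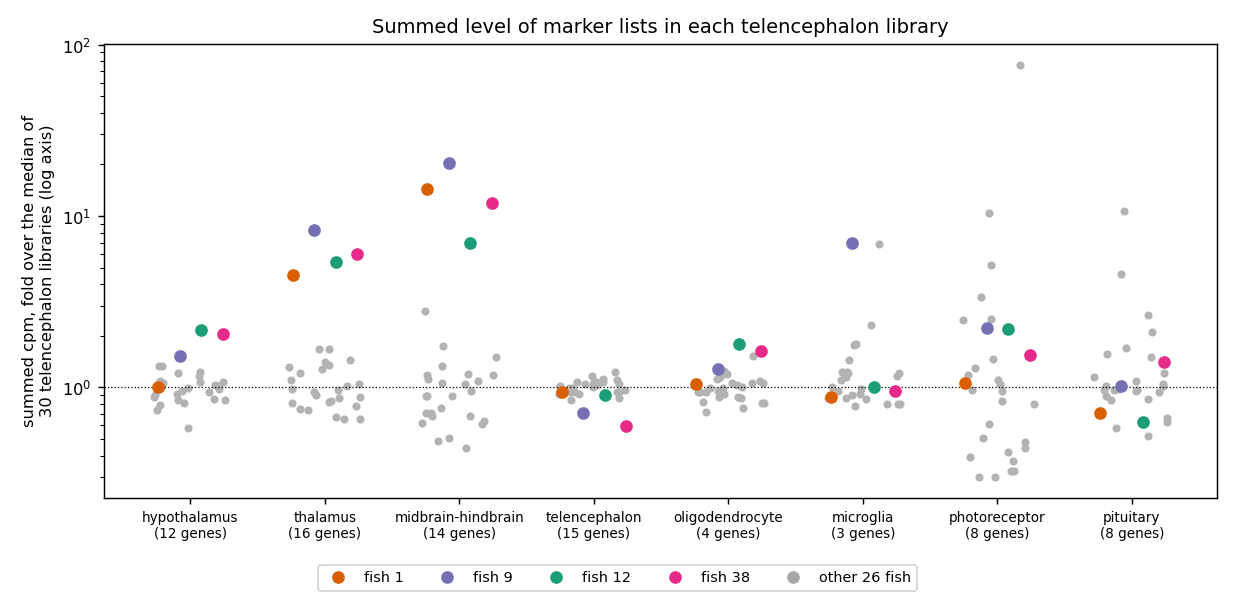
Summed cpm of each marker list in the 30 telencephalon libraries, as fold over the median library (log axis), with 1 point per library. Fish 1, 9, 12 and 38 lie highest for the thalamus and midbrain-hindbrain lists, fish 9 and 38 lowest for the telencephalon list, and 1 further library stands out for photoreceptor genes.

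Without these 4 fish the 6 region differences remained past the threshold, with log2 fold changes of 2.15 for otpa, 3.26 for barhl2, 2.84 for lhx9 and 3.32 for gata2a by edgeR's quasi-likelihood test. The fish were singled out with their high telencephalic values known. Leaving them out therefore favours larger differences, and these values are a description and no check. The telencephalic otpa level still ranged up to 5.58 cpm over the 26 other fish, while gata2a reached 1.45 cpm and foxa2 0.132 cpm. A low telencephalic level of barhl2, lhx9 and gata2a was thus measured in every library, with at least 23, 70 and 12 reads.

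Other regional factors were compared on the same contrast. Of all genes, 35.1% were called higher and 37.8% lower in diencephalon. Of the 12 hypothalamic factors, 11 were higher in diencephalon and 1 lower, with a median log2 fold change of 3.48. lmx1al, a LIM-homeobox gene (6.05 ± 0.28), and rx3, a retinal and hypothalamic homeobox gene (5.56 ± 0.30), differed most, and nkx2.1, which is known from both hypothalamus and subpallium, was lower (-1.61 ± 0.09, SE). nkx2.2a, an NK2-family relative that neighbours nkx2.4a in the RefSeq annotation of the assembly fGasAcu3.hap1.1, differed by 1.74 ± 0.06 and kept 3.78–10.4 cpm in telencephalon, so the 2 NK2 genes had unlike telencephalic levels relative to their own diencephalic levels (16.1–24.2 cpm for nkx2.2a). In that annotation foxa2, an unnamed locus, pax1a, nkx2.2a and nkx2.4a follow each other on 1 chromosome.

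Of the 16 thalamic, pretectal and epithalamic factors, 16 were higher in diencephalon, with a median log2 fold change of 5.12. shox2 (7.21 ± 0.28) and barhl1b (7.19 ± 0.36) differed most, and lhx1b (2.76 ± 0.20) and LHX1 (2.69 ± 0.14, SE) least. lhx9 thus lay just below this range, and barhl2 and gata2a lay at its low end. All 14 midbrain and hindbrain factors were higher in diencephalon (median 6.31), led by eng2a (7.39 ± 0.30) and pax7b (7.13 ± 0.32, SE). Of the 15 telencephalic factors, 14 were lower in diencephalon, most so eomesa (-5.77 ± 0.19) and emx3 (-5.56 ± 0.31), and emx2 was higher (2.59 ± 0.07, SE). The median over all genes was -0.01. Adjusted p-values of the genes named in these lists were all below the threshold of 0.1 by edgeR's quasi-likelihood test.

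The 6 factors did not vary as 1 group from fish to fish. Within diencephalon, barhl2, lhx9 and gata2a varied together over the 30 libraries. Pearson's r of log2 cpm was 0.91 for barhl2 and lhx9 (Spearman's rho 0.84), 0.83 for lhx9 and gata2a (rho 0.76) and 0.80 for barhl2 and gata2a (rho 0.70). Each of these 3 had a permutation p of 1e-05 for r, the smallest that 100000 permutations can give, and 6e-05 after Benjamini-Hochberg adjustment over 30 relations (at most 0.0003 for rho). Without the 2 libraries farthest from the median, r was 0.88, 0.73 and 0.72. foxa2 was related to lhx9 (r = 0.48, rho 0.40, adjusted permutation p = 0.0278 for r and 0.0953 for rho) and to gata2a (r = 0.49, rho 0.40, adjusted permutation p = 0.0297 for r and 0.0953 for rho). For these r was 0.27 and 0.47 without the 2 farthest libraries. foxa2 and barhl2 had r = 0.38 (rho 0.34, adjusted permutation p = 0.097 for r and 0.167 for rho). otpa and nkx2.4a had r between -0.23 and 0.12 with the group of barhl2, lhx9 and gata2a, and none of these 6 relations passed a threshold of 0.05.

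Within telencephalon the relations were arranged differently. otpa varied with barhl2 (r = 0.81, rho 0.83, adjusted permutation p = 6e-05) and with lhx9 (r = 0.66, rho 0.59, adjusted permutation p = 0.00045), and barhl2 with lhx9 (r = 0.81, rho 0.78, adjusted permutation p = 6e-05). Without the 2 farthest libraries r was 0.76, 0.55 and 0.71, and without fish 1, 9, 12 and 38 it was 0.78, 0.52 and 0.64 over 26 libraries. gata2a, which went with barhl2 and lhx9 in diencephalon, had r of 0.38 and 0.29 with them here (adjusted permutation p = 0.097 and 0.191), and -0.01 and -0.11 without the 4 fish. The relation of otpa and foxa2 (r = 0.51, adjusted permutation p = 0.00579, rho 0.37) rested on few libraries, with r = 0.28 without the 2 farthest. Differences between the regions in these correlations were not tested. The libraries of a region share dissection and normalisation, and their depth was not modelled.

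**Figure D4:**
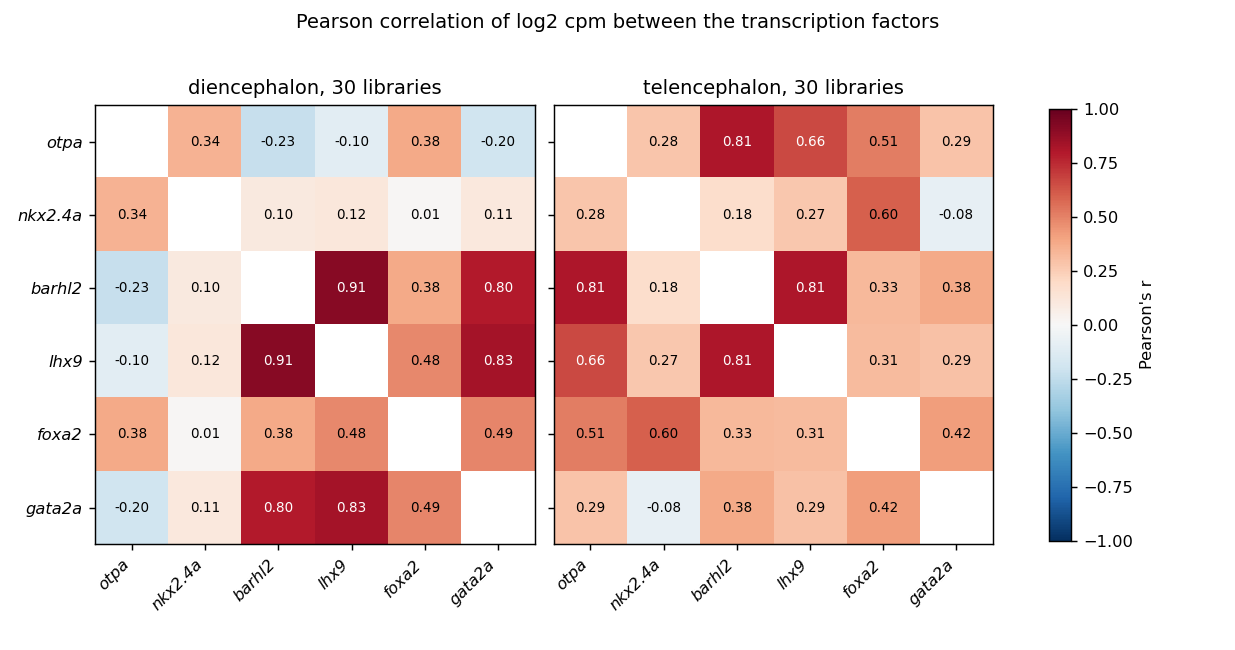
Pearson's r of log2 cpm between the 6 factors over the 30 diencephalon libraries and the 30 telencephalon libraries. barhl2, lhx9 and gata2a form the block of high values in diencephalon (0.80 to 0.91), and otpa, barhl2 and lhx9 in telencephalon (0.66 to 0.81).

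The levels of the 2 regions of a fish were also compared. Over 30 fish, r between the diencephalic and the telencephalic level lay between -0.40 for foxa2 and 0.18 for barhl2, and 0 of 6 relations passed (smallest adjusted permutation p = 0.245, unadjusted 0.0408 for foxa2, which without the 2 farthest fish had r = 0.17). On deviations from group means foxa2 had r = -0.39 (adjusted permutation p = 0.26), and -0.43 without the 2 farthest fish. Its sign without the farthest fish therefore depended on the setting.

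The genes whose diencephalic levels were most like those of each factor over 30 libraries were looked for among the 1767 tested genes with a name, which came from the paper's tables and include its transcription factors. They were OTP (r = 0.81) and POU2F2 (0.68) for otpa, gsx1 (0.86) and prox1a (0.82) for nkx2.4a, and, among those for foxa2, gsc (0.76). For barhl2 they were lhx9 (0.91) and tfap2e (0.89), for lhx9 tfap2e (0.92) and barhl2 (0.91), and for gata2a lhx9 (0.83) and its paralog gata2b (0.82). Without fish 1, 9, 12 and 38, r was 0.57 for otpa and OTP. It was 0.50 for otpa and POU2F2 and for foxa2 and gsc, and 0.80 to 0.93 for the other diencephalic pairs named. In telencephalon otpa was most like sim1b (0.91) and OTP (0.90), barhl2 most like otx2 (0.86), lhx9 most like ebf3a (0.86) and gata2a most like barhl1b (0.73). The last of these was 0.36 over the 26 libraries without fish 1, 9, 12 and 38, while otpa and sim1b had 0.87. These genes were picked as the highest of those with names, so their r is a description and has no test.

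No difference between challenged and control males passed the threshold for any of the 6 factors. In diencephalon 0 of 18 tests (6 genes at 3 times) passed by edgeR's quasi-likelihood test with Benjamini-Hochberg adjustment over all genes and 6 comparisons, where 0% of all genes passed in each comparison. At an unadjusted p under 0.05 there were 2 of 18, and DESeq2 called 0. Of all genes, 3.28%, 10.5% and 5.93% had such a p at 30, 60 and 120 min. In telencephalon nkx2.4a and foxa2 did not pass edgeR's filter on low counts, and 0 of the other 12 tests passed, with 0 at an unadjusted p under 0.05 and 0 called by DESeq2, which tested 18, where 4.14%, 12.3% and 3.98% of all genes had an unadjusted p under 0.05 at the 3 times. Log2 fold changes of challenged over control males lay between -0.35 and 0.36 in diencephalon and between -0.94 and 0.65 in telencephalon.

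gata2a at 60 min in diencephalon came closest. It measured 11.5, 12.3, 11.5, 11.6 and 12.6 cpm in challenged males, against 10.5, 10.7, 8.95, 11.0 and 9.73 cpm in control males. The groups did not overlap, as was the case for 1.35% of all genes in this comparison. The log2 fold change was 0.23 ± 0.10 (SE), with an unadjusted p of 0.0303 and an adjusted p of 0.701 by edgeR's quasi-likelihood test. The exact permutation test (two-sided, on log2 cpm) gave p = 0.00794, the smallest that 5 against 5 fish allow, in a family of 36 such tests of which 4 gave an exact p under 0.05. Of the other 3, 1 was foxa2 in diencephalon at 30 min, and 2 were nkx2.4a in telencephalon at 30 and 60 min (exact p = 0.0159 and 0.0476), where every library but that of fish 38 held 0 to 3 reads. The share of all genes with an exact p under 0.05 was not counted, so these 4 are a description. At 60 min in diencephalon the other factors also had positive log2 fold changes. These were 0.04 for otpa, 0.18 for barhl2 and lhx9, 0.21 for foxa2 and 0.36 for nkx2.4a, and none passed the threshold. gata2a varied with barhl2 and lhx9 across diencephalon libraries, as given above, so these values are not independent.

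foxa2 at 30 min in diencephalon was the other gene with an unadjusted p under 0.05. It measured 7.59, 6.29, 9.09, 6.60 and 5.17 cpm in challenged males, against 10.2, 8.42, 8.21, 9.09 and 8.50 cpm in control males. The groups overlapped in 1 challenged male. The log2 fold change was -0.35 ± 0.17 (SE), with an unadjusted p of 0.0442 and an adjusted p of 0.738 by edgeR's quasi-likelihood test. The exact permutation p was 0.0317. At 60 and 120 min the log2 fold change of foxa2 was 0.21 ± 0.17 and -0.20 ± 0.17 (SE), so its sign differed between times.

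nkx2.4a in diencephalon averaged 18.8 ± 2.87 cpm in challenged males and 14.7 ± 2.44 cpm in control males at 60 min (SD, n = 5 each), a log2 fold change of 0.36 ± 0.22 (SE, adjusted p = 0.828, edgeR's quasi-likelihood test). otpa at 120 min averaged 7.45 ± 1.42 cpm in challenged males and 8.95 ± 1.10 cpm in control males (SD, n = 5 each), with 4 of 5 challenged males below every control male and an adjusted p of 0.840 (edgeR's quasi-likelihood test). barhl2 and lhx9 had log2 fold changes between -0.08 and 0.18 in diencephalon. In telencephalon the largest ones, otpa at 60 min (-0.94 ± 0.79) and barhl2 at 120 min (0.65 ± 0.47, SE), had errors close to their own size. The value of barhl2 at 120 min was 0.03 and that of gata2a was -0.30, in place of 0.49 ± 0.32, without the 4 fish named above, 2 of which are challenged males of that time.

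**Figure D5:**
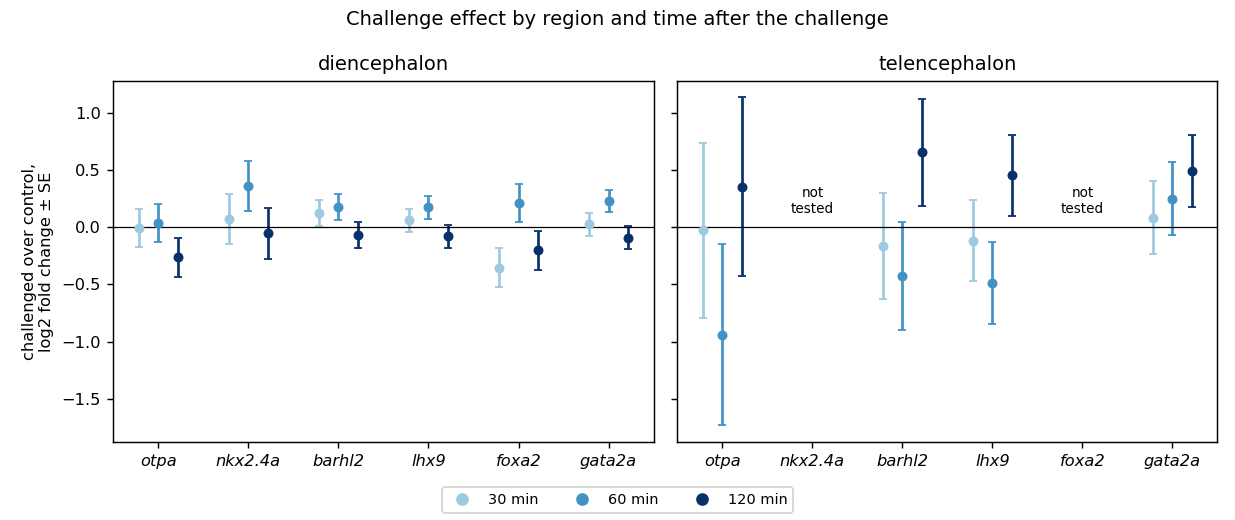
Log2 fold change of challenged over control males (points) with its standard error (bars) for each factor at 30, 60 and 120 min, from edgeR's fits of 30 libraries per region. No value passed the adjusted threshold, and errors are several times larger in telencephalon than in diencephalon. nkx2.4a and foxa2 did not pass the filter in telencephalon.

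The list of 16 thalamic, pretectal and epithalamic factors was compared in the same way. In telencephalon at 120 min, 13 of its genes were tested, 9 had an unadjusted p under 0.05 and 0 passed the adjusted threshold by edgeR's quasi-likelihood test, with a median log2 fold change of 2.71, against 0.01 over all genes. Of all genes, 3.98% had such an unadjusted p there. The midbrain and hindbrain list gave 5 of 7 (median 3.86), photoreceptors 3 of 8 (-1.56) and the hypothalamic list 0 of 7 (0.32). The telencephalic list gave 1 of 15, oligodendrocytes 1 of 4 and microglia 0 of 3. The 2 libraries of the challenged group with the highest summed level of the thalamic, pretectal and epithalamic list were those of fish 9 and fish 1. Their part in its median was not tested.

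No difference between times passed the threshold either. In diencephalon the comparisons of 60 and of 120 min with 30 min gave log2 fold changes between -0.14 and 0.13, with 0 of 12 tests past the threshold, 0 at an unadjusted p under 0.05 and 0 called by DESeq2. Of all genes, 0% passed by edgeR's quasi-likelihood test at 60 and 0.00573% at 120 min in this region, and 4.92% and 6.05% had an unadjusted p under 0.05. In telencephalon the range was -0.78 to 0.31, with 0 of 8 tests past the threshold, 0 at an unadjusted p under 0.05 and 0 called by DESeq2. Of all genes, 0% at 60 and 0.0058% at 120 min passed there, and 8.1% and 3.58% had an unadjusted p under 0.05. The lhx9 mean in diencephalon was 63.5 ± 5.16, 66.5 ± 3.66 and 62.5 ± 8.32 cpm in challenged males and 60.9 ± 4.03, 58.9 ± 10.0 and 66.0 ± 7.96 cpm in control males at 30, 60 and 120 min (SD, n = 5 each).

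Whether the challenge acted differently in the 2 regions was tested as an interaction at each time. 0 of 18 tests passed by edgeR's quasi-likelihood test, 3 had an unadjusted p under 0.05, and DESeq2 called 0. Of all genes 0% passed at each time, and 1.28%, 3.32% and 1.45% had an unadjusted p under 0.05 at 30, 60 and 120 min. The 3 values were foxa2 at 30 min (log2 difference of -4.11 ± 1.06, diencephalon minus telencephalon) and nkx2.4a at 30 and 60 min (-2.42 ± 0.82 and 4.31 ± 1.32, SE), each with an adjusted p of 1. They rest on telencephalic counts of mostly 0 to 3 reads per library and, at 30 min, on fish 38 with 129 reads of foxa2 and 12 of nkx2.4a. The other 4 factors had interaction values between -0.71 and 0.96.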

How the data were processed

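Poly-A RNA of 60 libraries was sequenced. Per the labels' processing notes and the study's methods, the authors demultiplexed reads with CASAVA (1.8.2), trimmed them, aligned them with TopHat2 (2.0.8) and counted them per gene with HTSeq (0.6.1), leaving out reads in more than 1 gene. The deposited counts are raw, with no normalization, and were used as they are. A deposited table of normalised values was not used. The processing notes name a mouse genome build and the methods the stickleback genome of Ensembl, and no coordinates were used here.

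Tests used edgeR (4.0.16) in R (4.3.3), on genes that reached 1 cpm in 2 or more of a fit's libraries, with TMM scaling and quasi-likelihood tests, and adjusted p-values under 0.1 called. Regions and interactions were tested over 60 libraries with 1 coefficient per group, with SE as the change divided by the root of F. Challenge and time were tested over 30 libraries per region. Log2 cpm (prior count of 2) was used for correlations (100000 permutations), exact permutation tests and spread. Python (3.11.15) with pandas (2.3.3) and scipy (1.17.1) was used. The edgeR steps were tested on simulated data. DESeq2 (1.42.0) was an alternative.

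Both libraries of a fish come from the same animal, and their deviations from group means correlated (r between 0.215 and 0.783, 30 fish). Each library is a separate animal's region, so replicates are fish. Names of genes came from the paper's supplementary tables. The genes described, the marker lists and the tests were chosen with earlier results of these data known. Named genes were the 6 factors, their paralogs, from each list the 2 with the highest and the 2 with the lowest region log2 fold change, and for each factor the 2 named genes with the highest correlation. 1 of these results is not reported here. Floors cover counting error only, while SE and SD also include variation between fish. Libraries sharing an index number 2 to 4 per region, so no value was computed within an index. No sequence is shown.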

Additional observations from a re-analysis of the deposited data

Results flagged for a closer look

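Within each group of 5 libraries, the highest or lowest library was set against the others by Dixon's ratio on log2 cpm. Of 72 groups of the 6 factors, 8 held a library that stood apart. The nominal rate of this ratio for independent normal values is about 1 in 20 groups (5%). The groups here share fish, and nkx2.4a and foxa2 held mostly 3 or fewer reads in telencephalon. No share over all genes is given, so the 8 groups are listed as a description and not as an excess. Fish 38 accounted for 3 of them, all in challenged males at 30 min: otpa at 4.40 cpm in diencephalon (others 9.11–10.2), foxa2 at 5.29 cpm in telencephalon (others 0–0.067) and nkx2.4a at 0.492 cpm in telencephalon (others 0.0232–0.0632). Fish 9, challenged at 120 min, accounted for 2, foxa2 at 3.69 cpm (others 6.64–8.10) and gata2a at 8.03 cpm (others 10.9–12.4), both the lowest in diencephalon. Fish 12 had the highest barhl2 among telencephalon libraries of control males at 30 min, 7.35 cpm (others 1.51–2.25). Fish 29 had the lowest nkx2.4a among diencephalon libraries of challenged males at 120 min, 6.09 cpm (others 14.1–17.3). Fish 20 had the highest gata2a among diencephalon libraries of control males at 120 min, 14.1 cpm (others 10.7–11.3).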

How the results depend on the processing

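All 6 factors passed the region test with the fish block, RLE size factors, DESeq2, no filter or a stricter one and control males only. The region and interaction fit already held all 17536 genes, so without a filter it was the same fit. The stricter filter asked for 1 cpm in 25 libraries, which the 30 diencephalon libraries alone can meet. nkx2.4a, with at most 0.492 cpm in telencephalon, met each filter through diencephalon alone, so the filters are no check of its difference. The 6 factors also passed without fish 1, 9, 12 and 38, an alternative added after seeing the data and no check of the region difference. For the challenge, time and interaction tests, run with those of these alternatives that apply and with a likelihood ratio test, for challenge and time also with the library index, and for the challenge with each time alone and adjustment within a comparison, 0 factors were called; leaving out each fish in turn also gave 6 to 6 and 0 to 0. With the fish as a replicate block, 6 factors were called for region, otpa at 2.11 and foxa2 at 6.58, and 0 for the interaction, so that the block changed no call. With each fish left out, otpa ranged over 1.73 to 1.96 and foxa2 over 6.16 to 7.10. In telencephalon nkx2.4a had 3 or fewer reads in 29 of 30 libraries and foxa2 in 26.

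Small challenge effects changed sign, all uncalled. With the library index in the model, the log2 fold changes in diencephalon were 0.00 for otpa, -0.01 for lhx9 and -0.04 for gata2a at 30 min and 0.06 for barhl2 and 0.02 for lhx9 at 120 min, and -0.07 for gata2a in telencephalon at 30 min. Without fish 1, 9, 12 and 38 they were 0.18 for otpa and -0.01 for gata2a at 30 min and 0.00 for lhx9 at 120 min in diencephalon, and in telencephalon 0.05 for otpa, 0.35 for barhl2, 0.28 for lhx9 and -0.09 for gata2a at 30 min and -0.30 for gata2a at 120 min. With each fish left out, values in diencephalon at 30 min ranged over -0.07 to 0.16 (otpa), -0.10 to 0.25 (nkx2.4a) and -0.05 to 0.07 (gata2a), at 60 min over -0.03 to 0.14 (otpa), and at 120 min over -0.15 to 0.14 (nkx2.4a), -0.12 to 0.02 (barhl2) and -0.14 to 0.00 (gata2a). In telencephalon they ranged at 30 min over -0.93 to 0.95 (otpa), -0.37 to 0.55 (barhl2), -0.28 to 0.41 (lhx9) and -0.09 to 0.19 (gata2a), and at 120 min over -0.14 to 0.85 (otpa). Of 20 time effects, 12 changed sign under some alternative. As deviations from group means, r in diencephalon was -0.014 for nkx2.4a with barhl2, -0.176 with foxa2 and -0.008 with gata2a, and 0.009 for nkx2.4a with gata2a in telencephalon. On such deviations foxa2 in diencephalon had r = 0.58 with lhx9, 0.48 with barhl2 and 0.53 with gata2a. Their rho was 0.64, 0.51 and 0.50, with adjusted permutation p of at most 0.0186 for r and 0.0166 for rho. Without the 2 farthest libraries r was 0.48, 0.52 and 0.24. Over all genes, DESeq2 called 7, 76 and 26 challenge effects in diencephalon and 49, 107 and 7 in telencephalon at 30, 60 and 120 min, and the likelihood ratio test 10, 50 and 17 and 40, 67 and 6, where the quasi-likelihood test called 0 throughout. None was among the 6 factors. The causes were not tested.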
